A study of Mus musculus with 3 samples.

Results

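The genes of cellular iron uptake, storage and sensing were examined in gastrocnemius muscle of HF+SFC-fed, HF-fed and Control-fed mice. They were a list of 10: the uptake genes Tfrc, Slc11a2 and Slc39a14, the exporter Slc40a1, the storage genes Fth1, Ftl1 and Ncoa4, and the sensing genes Hfe, Aco1 and Ireb2. A probe set, a group of short probes against 1 transcript, was assigned to a member when the array annotation gave that gene as its only symbol. This gave 26 probe sets for 9 members, out of 34958 probe sets for 18194 genes. Ftl1, the ferritin light chain, had none, since its 3 probe sets also name the pseudogene Ftl1-ps2 and 1 of them also 3 microRNA genes, so no level is given for it.

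All mice were C57BL/6J males. HF+SFC was the D12492 diet (60% kcal fat) to which the ferrous iron salt sodium ferrous citrate was added at 0.023% by weight, HF was D12492 alone, and Control was D12450B with 10% kcal fat. Each diet was given for 15 weeks, starting at 6 weeks of age by the study's methods, while the sample labels state 21 months. Each group was measured as 1 pool of its mice on 1 Affymetrix mouse genome array, 3 arrays in all, and no group received the iron salt with the Control diet. The values are MAS5 signals, the array maker's summary of probe brightness on a linear scale, and signals of different probe sets are not compared as levels. With no replicate of any group, no test was run, no difference can be set against a replicate error, and ratios are described against a 1.5-fold threshold. In whole muscle, fewer cells of a type and less RNA per cell cannot be told apart.

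The defining markers of skeletal muscle were present, with Acta1, the skeletal actin, at 49802 in HF+SFC, 41541 in HF and 44954 in Control, and Ckm, the muscle creatine kinase, at 50185 in HF+SFC, 37327 in HF and 45640 in Control. The array medians were 68.0, 67.4 and 63.6 in HF+SFC, HF and Control. For beta-actin, the 3' control probe set was above the 5' one by a factor of 1.15 in HF+SFC, 1.52 in HF and 1.09 in Control. For Gapdh this factor was 0.820 in HF+SFC, 0.832 in HF and 0.842 in Control. The array also carries such control probe sets for the transferrin receptor itself. Their 3' to 5' factor was 1.85 in HF+SFC, 1.73 in HF and 1.94 in Control. The factor of the 3' to the middle probe set was 2.86 in HF+SFC, 2.83 in HF and 2.49 in Control. The order of the arrays thus differed between these factors, and HF was highest only for beta-actin. The positions of the genes given below are those of RefSeq on GRCm38.p6, since the array values carry no coordinates.

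Most cells take up iron as transferrin bound to the transferrin receptor, release it in endosomes, and pass it to the cytosol through divalent metal transporters. Iron that is not used is stored in ferritin shells or exported through ferroportin. Cytosolic iron is read by the iron regulatory proteins, which bind stem-loops called iron-responsive elements in the mRNAs of this system when iron is low. Binding in the 5' untranslated region of ferritin and ferroportin mRNA blocks translation, whereas binding in the 3' untranslated region of the transferrin receptor mRNA protects it from decay. Skeletal muscle holds much iron in myoglobin and in mitochondrial enzymes. Arrays report mRNA, and so do not show the translational part of this control.

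Sequences of 30 bases from the promoters of these genes are shown first, to give the regulatory letters of genes whose mRNA is described below. RefSeq windows of 300 bases (GRCm38.p6, 250 before and 50 from the annotated start of transcription) were found for 7 of the 10 members, 11 windows in all. Slc11a2, Slc39a14 and Slc40a1 had none. They were searched on both strands for ACGTG, the core of the sites of hypoxia-inducible factors, for CCAAT, for TATAA and for TGACNNNGC, a core of antioxidant response elements. ACGTG was in 4 of the 11 windows, of 2 members (Tfrc and Ncoa4), and in 19.6% of 32851 windows of all genes. The 2 Tfrc windows overlap and hold the same match. CCAAT was in 3 of the 11 windows, of 3 members (Tfrc, Fth1 and Ftl1), and in 37.4% of all windows. TATAA was in 5 windows, of 4 members (these and Ncoa4), and in 24.9% of all windows. TGACNNNGC was in 2 windows, of 2 members (Hfe and Ncoa4), and in 12.4% of all windows. In the lines below, capitals mark the match, and a match is a description of letters and not a site of binding. The Tfrc line (chr16:32608881-32608910, + strand) holds ACGTG 2 bases before the first annotated start. The Ncoa4 line (chr14:32165708-32165737, + strand) holds ACGTG 68 bases before a downstream start of that gene. The Fth1 line (chr19:9982626-9982655, + strand) and the Ftl1 line (chr7:45459904-45459933, - strand) hold CCAAT on the opposite strand, 7 bases before a downstream start of Fth1 and 34 before the start of Ftl1. A TATAA lies after these starts, at 26 bases in Fth1 and 17 in Ftl1, and Fth1 has another on the opposite strand, 123 bases before its first annotated start.
Tfrc: cctcggtaggtgtACGTGcggaaggaagtg
Ncoa4: gagggggagggagACGTGacgcgcgcaagg
Fth1: gcccgctgcgctgATTGGccagcgctcgcc
Ftl1: cacgccaccgccgATTGGttagtctcgggc

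Tfrc (chr16:32608896-32632794), which encodes the transferrin receptor that brings transferrin-bound iron into the cell, hardly differed between the diets. On its brightest probe set (the one with the highest mean log2 signal) it had 10707 in HF+SFC, 10053 in HF and 10076 in Control, a ratio of 1.07 for HF+SFC to HF and 0.998 for HF to Control. The other 5 probe sets, of which 3 are the array's control probe sets for this mRNA, lay between -0.14 and 0.25 on the log2 scale for HF+SFC against HF. Of its 6 probe sets, 2 gave a higher value with the iron salt added to HF and 4 a lower or nearly equal one (573 in HF+SFC and 573 in HF on the second). With array medians set equal, the log2 ratio of HF+SFC to Control was -0.009 in place of 0.088, so that no direction is given for this gene.

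Slc11a2 (chr15:100387898-100424209) encodes DMT1, the divalent metal transporter that moves ferrous iron across membranes. Its signal was 497 in HF+SFC, 390 in HF and 413 in Control on the brightest probe set. HF+SFC was thus 1.27-fold of HF, the widest range among the brightest probe sets of the members (0.35 on the log2 scale), and HF was 0.943-fold of Control. The remaining probe sets did not share this order. The next brightest had 336 in HF+SFC, 328 in HF and 320 in Control, and another ran the opposite way, with 244 in HF+SFC, 310 in HF and 260 in Control. Slc11a2 mRNA is made in forms that differ at the 3' end, with and without an iron-responsive element, and the annotation used here does not say which form each probe set detects. When the 4 probe sets were averaged, the log2 ratio of HF+SFC to HF was 0.077. The averaged log2 ratio of HF+SFC to Control was -0.059, against 0.27 on the brightest probe set.

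Slc39a14 (chr14:70303467-70351452), which encodes ZIP14, a carrier of iron that is not bound to transferrin, was lowest with the iron salt on its brightest probe set. The signal was 237 in HF+SFC, 286 in HF and 283 in Control, or 0.831-fold for HF+SFC against HF and 1.01-fold for HF against Control. The next probe set had 89.8 in HF+SFC, 91.1 in HF and 67.9 in Control, not far above the array medians, and there HF was 1.34-fold of Control. The other 2 probe sets lay below the array medians on every array. They gave opposite differences, 61.6 in HF+SFC, 33.4 in HF and 40.2 in Control on the first, and 2.89 in HF+SFC, 18.0 in HF and 6.47 in Control on the second. Averaging all 4 probe sets moved the log2 ratio of HF+SFC to HF to -0.51 and that of HF to Control to 0.41. The dimmest probe set by itself had log2 ratios of -2.64 and 1.48 in these comparisons.

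Slc40a1 (chr1:45908070-45926532) encodes ferroportin, the only known exporter of cellular iron in mammals and the target of the liver hormone hepcidin. Its signal was 3733 in HF+SFC, 4223 in HF and 3885 in Control. HF was 1.09-fold of Control on both probe sets of the gene. HF+SFC was 0.884-fold of HF on the brightest and 0.998-fold on the second, which had 725 in HF+SFC, 726 in HF and 667 in Control. Macrophages, which are rich in ferroportin, had more marker signal in HF than in Control. Their 10 markers summed to 3540 in HF+SFC, 3775 in HF and 2881 in Control, with 9 of 10 higher in HF than in Control, and the part of this in the Slc40a1 signal was not tested.

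**Figure D1:**
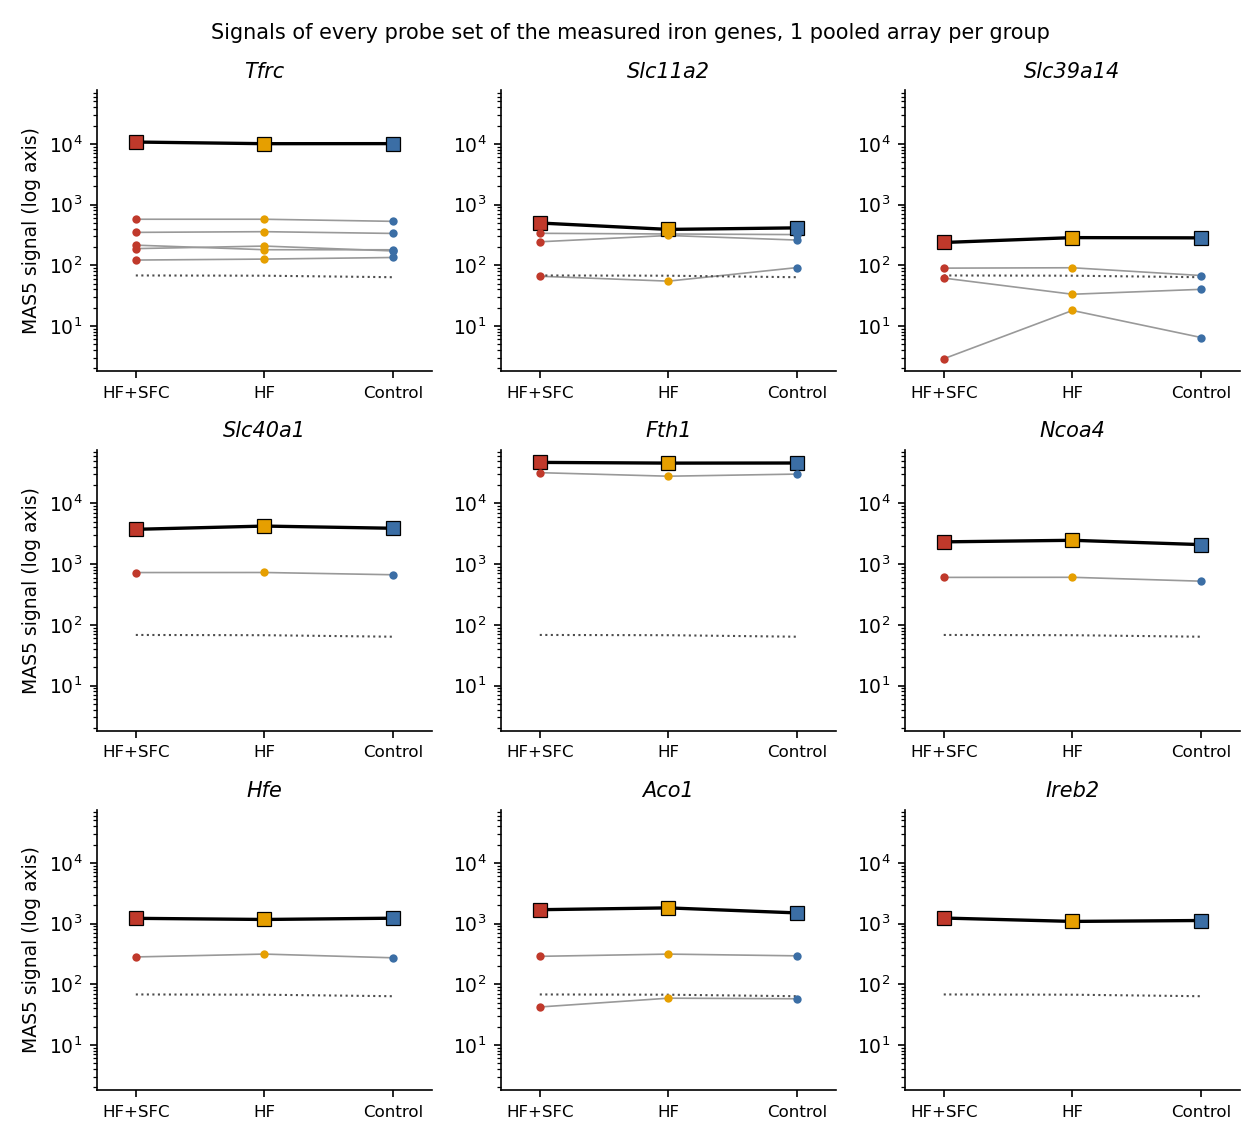
MAS5 signal (log axis) of every probe set of the 9 measured iron genes on the HF+SFC, HF and Control arrays, with 1 pooled sample per array. Squares on black lines are the brightest probe set, dots on grey lines the others, and the dotted line is the array median (68.0, 67.4 and 63.6). The black lines are nearly flat, with ranges over the arrays between 1.03-fold (Fth1) and 1.27-fold (Slc11a2).

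Fth1 (chr19:9980600-9985111), the ferritin heavy chain, whose ferroxidase activity loads iron into the ferritin shell, had the narrowest range of the brightest probe sets in the deposited values. Its signal was 47211 in HF+SFC, 45958 in HF and 46118 in Control, a range of 1.03-fold. The second probe set had 31981 in HF+SFC, 27965 in HF and 30308 in Control, a range of 1.14-fold, with HF at 0.923-fold of Control. On both probe sets the HF array was lowest, but after quantile normalization the brightest probe set turned round, with a log2 ratio of -0.12 for HF+SFC against HF and 0.047 for HF against Control, and its difference between HF+SFC and HF was then larger than those of Tfrc (0.070) and Hfe (0.078). Genes of muscle fibres, which are also bright, moved in the same way as the deposited Fth1 values. All 6 fast fibre markers were below Control in HF (median of -0.11 on the log2 scale) and above HF in HF+SFC (median of 0.20). All 6 slow fibre markers ran the same way and further, with medians of -0.44 and 0.46 in these comparisons, and the part of either list in the Fth1 values was not tested.

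Ncoa4 (chr14:32159879-32179855) encodes the cargo receptor that carries ferritin to lysosomes for breakdown, which frees the stored iron. Its signal was 2320 in HF+SFC, 2463 in HF and 2091 in Control on the brightest probe set, and 603 in HF+SFC, 605 in HF and 522 in Control on the other. HF was 1.18-fold of Control on the brightest and 1.16-fold on the other probe set. HF+SFC was 0.942-fold and 0.997-fold of HF on these probe sets, and 1.11-fold and 1.15-fold of Control. Both arrays of the high-fat diet were therefore above Control, and they lay close to each other.

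Aco1 (chr4:40143265-40199009) encodes iron regulatory protein 1, which is a cytosolic aconitase when it carries an iron-sulfur cluster and an RNA-binding protein when it does not. Its signal was 1692 in HF+SFC, 1811 in HF and 1497 in Control on the brightest probe set. HF was 1.21-fold of Control and HF+SFC 0.934-fold of HF. On the second probe set the signal was 289 in HF+SFC, 314 in HF and 294 in Control, and HF was 1.07-fold of Control. The dimmest lay below the array medians, with 42.3 in HF+SFC, 59.1 in HF and 57.8 in Control. The brightest probe set can bind several transcripts by its design class, and without such probe sets the log2 ratio of HF to Control was 0.095 in place of 0.28, below that of Ncoa4 (0.24), and that of HF+SFC to Control was -0.03 in place of 0.18.

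Ireb2 (chr9:54862658-54912534) encodes iron regulatory protein 2, which binds the same stem-loops and is removed by degradation when iron is plentiful. On its only probe set it had 1233 in HF+SFC, 1085 in HF and 1123 in Control. HF+SFC was 1.14-fold of HF and HF 0.966-fold of Control. Aco1 and Ireb2 thus had their highest signal on different arrays, HF for Aco1 and HF+SFC for Ireb2.

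Hfe (chr13:23702034-23710854), a protein of the MHC class I family that binds the transferrin receptor and takes part in iron sensing in the liver, had 1219 in HF+SFC, 1168 in HF and 1225 in Control. HF+SFC was 1.04-fold of HF and HF 0.953-fold of Control. On its second probe set the order was reversed, with 282 in HF+SFC, 314 in HF and 273 in Control. The mean of both gave a log2 ratio of -0.05 for HF+SFC against HF and 0.07 for HF against Control, so that no direction is given.

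Across the list, the iron salt was accompanied by no difference of 1.5-fold on the brightest probe set of any measured member. In HF+SFC against HF, 5 of 9 members were higher and 4 lower on the brightest probe set, with log2 ratios between -0.27 (Slc39a14) and 0.35 (Slc11a2) and a median of 0.039. In HF against Control, 4 were higher and 5 lower, between -0.08 (Slc11a2) and 0.28 (Aco1), with a median of -0.003. In HF+SFC against Control, 6 were higher and 3 lower, between -0.25 (Slc39a14) and 0.27 (Slc11a2), with a median of 0.088. The medians over all 18194 genes were 0.010, 0.007 and 0.017 for these comparisons, which share arrays with each other and are not independent.

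The count of 0 of 9 members past 1.5-fold was set beside the share of all genes. On the brightest probe set, 13.7% of all genes were past it upward and 13.5% downward in HF+SFC against HF. The shares were 17% higher and 12.2% lower for HF against Control, and 16.5% higher and 12.4% lower for HF+SFC against Control. Most of these genes are dim, and dim signals vary more between arrays. Among 6708 genes whose mean signal was above the 75th percentile of all probe sets, as that of 8 of the 9 members was (all but Slc39a14), the shares were far smaller. They were 0.298% higher and 0.641% lower for HF+SFC against HF, 1.52% higher and 1.07% lower for HF against Control, and 0.939% higher and 1.04% lower for HF+SFC against Control. A count of 0 among the members was thus close to the background of genes of such signal.

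**Figure D2:**
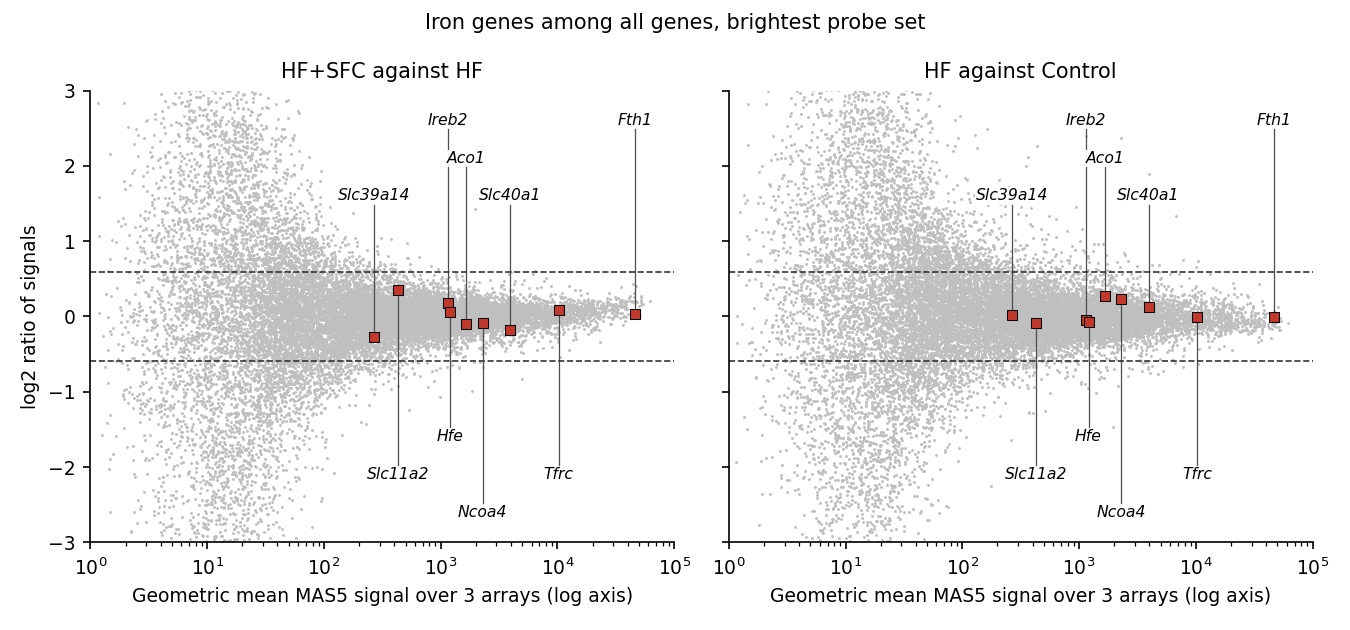
Log2 ratio of signals against the geometric mean MAS5 signal over the 3 arrays (log axis) for HF+SFC against HF (left) and HF against Control (right). Grey points stand for 18194 genes by their brightest probe set (those beyond 3 on the log2 scale are not drawn), squares are the 9 measured iron genes, and dashed lines are 1.5-fold. The squares lie between the dashed lines, in the part of the signal range where the grey points are narrow.

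Smaller differences were described against genes above the 75th percentile of signal and against probe sets of 1 gene. In HF+SFC against HF, the middle 90% of the 6708 genes lay between -0.29 and 0.28 on the log2 scale, and 1 of the 8 members in this class, Slc11a2 at 0.35, lay outside it. In HF against Control (-0.36 to 0.36) and HF+SFC against Control (-0.34 to 0.31), none of the 8 did. The Slc11a2 signals (497 in HF+SFC, 390 in HF and 413 in Control) were near the lower limit of the class, 386. The brightest and the next probe set of a gene, both above the 75th percentile, had log2 ratios that differed with an SD of 0.23 for HF+SFC against HF, 0.26 for HF against Control and 0.22 for HF+SFC against Control, over 2459 genes. For most members, the differences between diets were no larger than this.

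For Slc40a1, Ncoa4 and Aco1, 3 of the 8 members with at least 2 probe sets, every probe set was above Control in HF and lower with the iron salt than in HF alone, as was so for 8.85% of 9012 genes with at least 2 probe sets. The 3 were singled out after their values were seen, and the second probe sets of Slc40a1 and Ncoa4 were nearly equal in HF+SFC and HF (log2 ratios of -0.003 and -0.005). The ratios were small, and on the brightest probe sets HF was 1.09-fold of Control for Slc40a1, 1.18-fold for Ncoa4 and 1.21-fold for Aco1. These comparisons share the HF array, so that a high reading there enters both. Adipocyte markers summed to 29549 in HF+SFC, 32933 in HF and 23051 in Control over 6 genes, and fibroblast markers to 38204 in HF+SFC, 38595 in HF and 30490 in Control over 6 genes. The adipocyte sum was mostly Fabp4, at 25306 in HF+SFC, 26497 in HF and 21626 in Control. All 6 measured markers of each list had more signal in HF than in Control, with adiponectin (Adipoq) at 2915 in HF+SFC, 4637 in HF and 901 in Control. In HF+SFC against HF the median log2 ratio over the adipocyte list was -0.59, with 5 of 6 lower and 3 past 1.5-fold (Adipoq, Lep and Cidec), which is the direction of these 3 members. The fibroblast markers had a median of -0.06. The part of both lists in the values of these members was not tested.

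**Figure D3:**
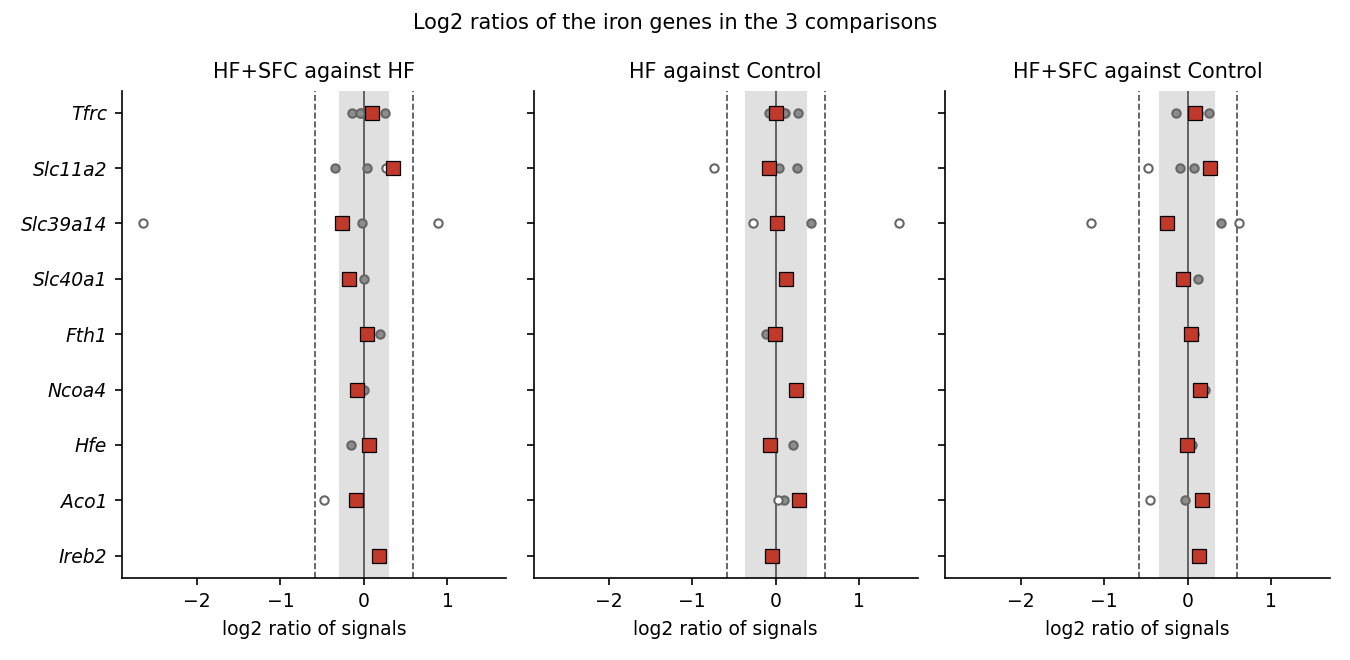
Log2 ratio of signals for the 9 measured iron genes in HF+SFC against HF, HF against Control and HF+SFC against Control. Squares are the brightest probe set, filled circles other probe sets above the array median on all arrays, and open circles probe sets below it on at least 1 array. Dashed lines are 1.5-fold and the grey band is the middle 90% of 6708 genes above the 75th percentile of signal. The circles beyond the dashed lines are all open ones, of Slc39a14 and Slc11a2.

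All 9 brightest probe sets and 22 of the 26 probe sets were above the array median on every array. Of these 22, none reached 1.5-fold in any comparison, and the largest log2 ratio in either direction was 0.42, that of the second Slc39a14 probe set in HF against Control. The 4 others belonged to Slc11a2, Slc39a14 and Aco1. Counting any probe set, 1 member was past 1.5-fold in HF+SFC against HF (Slc39a14, with 1 probe set higher and 1 lower), 2 in HF against Control (Slc39a14 higher and Slc11a2 lower) and 1 in HF+SFC against Control (Slc39a14, in both directions). Under that rule 46.7%, 48.6% and 48.3% of all genes were past the threshold in these comparisons. The Slc11a2 probe set read 66.0 in HF+SFC, 54.9 in HF and 91.7 in Control.

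The pattern of the brightest Slc11a2 probe set, the widest of the brightest ones (with all probe sets averaged, Slc39a14 was wider, at a log2 ratio of -0.51 against 0.077 for HF+SFC against HF), was compared with that of 6707 genes above the 75th percentile of signal, by the distance of the pair of log2 ratios HF against Control and HF+SFC against HF. The nearest were Ky (4717 in HF+SFC, 3723 in HF and 3950 in Control), Zfp598 (535 in HF+SFC, 416 in HF and 442 in Control) and Wdsub1 (825 in HF+SFC, 644 in HF and 678 in Control), at distances of 0.0086, 0.011 and 0.013 on the log2 scale. In all, 21 genes lay within 0.05, and likeness over 3 arrays says little of a gene.

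Other genes of iron handling, 50 in 5 lists, of which 48 were measured, were counted in the same way. In HF+SFC against HF, 25 lay above 0 on the log2 scale and 23 below it, around a median of 0.016. There, 3 were past 1.5-fold upward (6.25%, beside 13.7% of all genes) and 5 downward (10.4%, beside 13.5%). In HF against Control, 5 were past the threshold upward (10.4%, beside 17%) and 1 downward (2.08%, beside 12.2%). In HF+SFC against Control, 3 were past it upward (6.25%, beside 16.5%) and 2 downward (4.17%, beside 12.4%). Of the 48 genes, 42 were above the array median on at least 1 array, while the all-gene shares come mostly from dim genes. Among the 6708 genes above the 75th percentile of signal, 0.298% were past 1.5-fold upward and 0.641% downward in HF+SFC against HF. The shares were 1.52% and 1.07% for HF against Control, and 0.939% and 1.04% for HF+SFC against Control. How many of the 48 genes belong to that class was not counted. All genes of the 48 that were past 1.5-fold in any comparison had a mean signal below its lower limit, 386. The brightest of them was Tmprss6, with 210 in HF+SFC, 331 in HF and 457 in Control. The shares of the 48 genes are therefore not like for like with those of the bright class.

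Among 14 measured genes of membrane iron uptake and reduction, 6 had a higher and 8 a lower value in HF+SFC against HF, and 1 passed 1.5-fold in each direction. Steap3, a ferrireductase that reduces iron released from transferrin in endosomes, had 179 in HF+SFC, 284 in HF and 190 in Control. HF+SFC was 0.630-fold of HF on that probe set, while the next ones had 166 and 117 in HF+SFC, 189 and 77.4 in HF, and 198 and 91.7 in Control. Tfr2, a second transferrin receptor, had 112 in HF+SFC, 138 in HF and 65.5 in Control, or 2.11-fold for HF against Control, and its dimmer probe set gave 0.564-fold. Steap2, a metalloreductase, had 75.1 in HF+SFC, 45.9 in HF and 26.0 in Control, above the array median only in HF+SFC. Its other probe sets, all below the array medians, ranged from 0.164-fold to 4.97-fold for HF+SFC against HF, with only the dimmest lower. The metal carrier Slc39a8 had 39.7 in HF+SFC, 43.8 in HF and 64.0 in Control, just above the median only in Control. Its other probe set read 6.19 in HF+SFC, 1.38 in HF and 6.74 in Control. Scara5, a ferritin receptor, was at 1281 in HF+SFC, 943 in HF and 958 in Control, 1.36-fold for HF+SFC against HF, and its second probe set gave 1.46-fold at a signal near the array median.

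Of 10 measured genes of export, ferroxidases and the hepcidin axis, 5 had a higher and 5 a lower value in HF+SFC against HF. Tmprss6 was lowest with the iron salt and highest on the Control diet. It encodes matriptase-2, a liver protease that lowers hepcidin expression by acting on hemojuvelin, and it had 210 in HF+SFC, 331 in HF and 457 in Control on its only probe set. HF+SFC was 0.634-fold of HF and 0.459-fold of Control. Hjv, hemojuvelin, a co-receptor of bone morphogenetic proteins that is made in skeletal muscle as well as in liver, had 26450 in HF+SFC, 24362 in HF and 22814 in Control, 1.09-fold for HF+SFC against HF, and 16688 in HF+SFC, 16618 in HF and 16283 in Control on its second probe set. Heph, the ferroxidase hephaestin, had 45.0 in HF+SFC, 83.8 in HF and 37.1 in Control, above the median only in HF. Hamp2, a hepcidin gene of the mouse, had 95.4 in HF+SFC, 48.3 in HF and 49.7 in Control, above the median only in HF+SFC. On its other probe set HF+SFC was lowest, with 9.01 in HF+SFC, 32.2 in HF and 41.2 in Control. Hamp, which encodes hepcidin, had 58.8 in HF+SFC, 74.2 in HF and 67.9 in Control, above the median only in HF and Control. For Hamp, HF+SFC was 0.792-fold of HF on that probe set and 0.927-fold on the other, which lay below the array medians. The liver markers Alb, Apoa1 and Ttr, measured on the same arrays, summed to 87.8 in HF+SFC, 122 in HF and 75.5 in Control, close to background.

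The 10 genes of iron chaperones, ferritin and ferritinophagy and the 8 genes that control the iron regulatory proteins held no gene above the array median that passed 1.5-fold in any comparison on its brightest probe set. Among the chaperone genes above the median on at least 1 array, Pcbp3 had the highest ratio of HF+SFC to HF, with 196 in HF+SFC, 161 in HF and 172 in Control. Glrx3, a glutaredoxin, had the lowest, with 59.6 in HF+SFC, 71.3 in HF and 72.4 in Control, above the median only in HF and Control. Pcbp1 and Pcbp2, chaperones that deliver iron to ferritin, had 9096 and 8516 in HF+SFC, 9131 and 8277 in HF, and 9382 and 8237 in Control. Herc2, a ubiquitin ligase that acts on NCOA4, had 1284 in HF+SFC, 1080 in HF and 1360 in Control. Fbxl5, the iron-binding subunit of the ligase that removes iron regulatory protein 2, had 1559 in HF+SFC, 1846 in HF and 1533 in Control, or 0.844-fold for HF+SFC against HF, with a log2 ratio of 0.27 for HF against Control. Skp1, the adaptor of that ligase, had 19022 in HF+SFC, 16348 in HF and 15581 in Control on its brightest probe set, 1.16-fold for HF+SFC against HF, while its second gave 0.874-fold.

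Other mRNAs described with an iron-responsive element were measured for 6 of 7 genes, of which 5 were above and 1 below 0 on the log2 scale in HF+SFC against HF (median 0.14, beside 0.010 for all genes). Among the 5 higher genes was Hao1, a liver oxidase, which was below the array median on every array (20.8 in HF+SFC, 1.41 in HF and 25.01 in Control), and of the 5 genes above the median 4 were higher and 1 lower, with a median of 0.13. In the same comparison the fibre markers were higher too, with median log2 ratios of 0.46 for slow and 0.20 for fast fibres and 0.25 for the general muscle markers, and their part was not tested. Epas1, the hypoxia-inducible factor 2-alpha, had 10788 in HF+SFC, 9872 in HF and 9797 in Control. Pfn2, profilin 2, had 23759 in HF+SFC, 21989 in HF and 21319 in Control. Cdc14a, a phosphatase with the element in its 3' untranslated region, had 1048 in HF+SFC, 897 in HF and 1272 in Control, 0.705-fold for HF against Control. Alas2, the erythroid enzyme of the first step of heme synthesis, was the lower gene, with 103 in HF+SFC, 160 in HF and 141 in Control. The erythroid markers Slc4a1, Hba-a1 and Epb42 lay below the array medians on all arrays.

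**Figure D4:**
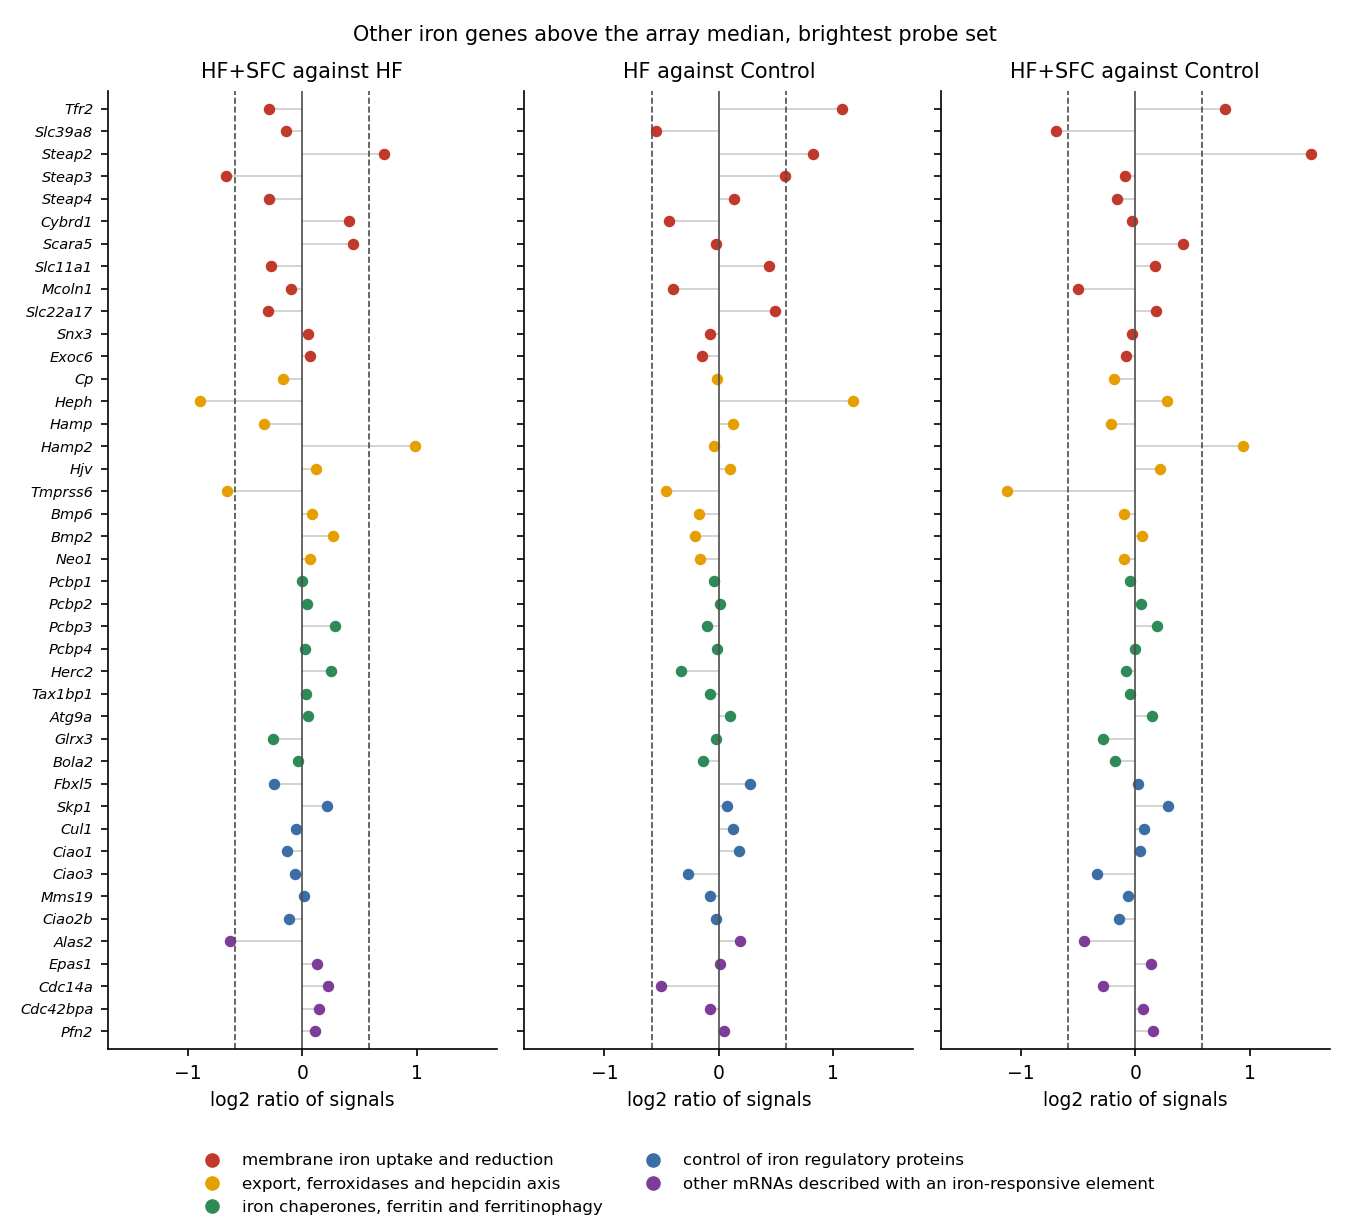
Log2 ratio of signals of the 42 other iron genes above the array median on at least 1 array, brightest probe set, in HF+SFC against HF, HF against Control and HF+SFC against Control. Colours are the 5 lists and dashed lines are 1.5-fold. The points beyond the dashed lines include Tmprss6 and Steap3 (lower in HF+SFC than in HF, 0.634-fold and 0.630-fold) and Tfr2 (2.11-fold in HF against Control). The genes of the iron chaperone list and of the control of iron regulatory proteins lie between the dashed lines.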

How the data were processed

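Total RNA of gastrocnemius muscle was labelled as cRNA with a 3' IVT kit and hybridised as 1 pool per group. The authors deposited MAS5 intensities for 45101 probe sets on a linear scale, scaled to the same trimmed mean on every array. The version of MAS5 is not given in the sources used here, and no detection calls were used. Of 34958 probe sets with 1 symbol, 34754 had a gene ID found in RefSeq (GRCm38.p6), which gave the current symbol. In all, 932 probe sets with several symbols and 9211 with none were not named. Log2 ratios used the brightest probe set of a gene and no offset. The members and the lists were chosen with earlier results of these data known. Genes outside the member list were named where their brightest probe set was above the array median on at least 1 array and past 1.5-fold, or, in lists without such a gene, had the highest or lowest ratio of HF+SFC to HF. Scara5, Hjv, Hamp, Pcbp1, Pcbp2, Herc2, Epas1, Pfn2 and Cdc14a were added after their values were seen. Results were recomputed with all probe sets averaged, after quantile normalization, after centring on array medians, with 50 added to each signal, without dim probe sets, without cross-hybridising probe set classes, at 2-fold, and with any probe set counted. The steps were tested on simulated data. Python 3.11.15 was used with pandas 2.3.3, numpy 2.4.6 and matplotlib 3.10.9. Precision is limited by the number of arrays, 3.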

Additional observations from a re-analysis of the deposited data

How the results depend on the processing

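No paired analysis was possible because each group had 1 array. With any probe set counted in place of the brightest, the members past 1.5-fold numbered 1 in HF+SFC against HF, 2 in HF against Control and 1 in HF+SFC against Control, in place of 0, through probe sets near or below the array median. The count was 0 in each comparison under quantile normalization, median centring, and without cross-hybridising probe set classes. It was also 0 with 50 added to each signal, the filter on dim probe sets and a 2-fold threshold, but these could not have raised it. An added constant shrinks the ratio of a probe set, all 9 brightest probe sets pass the filter, and 2-fold is the stricter threshold. Of 162 log2 ratios of single members under 6 alternatives, 157 moved by less than the SD between probe sets of 1 gene and 5 by more. The 5 came from the mean of all probe sets and belonged to Slc39a14, Slc11a2 and Aco1. The filter on dim probe sets changed none of the ratios, and leaving out cross-hybridising classes changed only those of Aco1. For most members the ratios were no larger than this SD, so the 157 say little of stability. The sign changed in 16 of the 162 log2 ratios, of Fth1, Hfe, Tfrc, Slc39a14, Slc11a2, Slc40a1 and Aco1, and the cause was not tested. Members' medians stayed between -0.08 and 0.04 for HF+SFC against HF, between -0.09 and 0.07 for HF against Control, and between -0.01 and 0.09 for HF+SFC against Control, so that none has a stable direction.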
